A study of Homo sapiens with 16 samples.

Results

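The regions described here carried a listed H3K27ac peak in both cisplatin (cPt)-resistant epithelial ovarian cancer (EOC) lines, A2780cis and CAOV4cis, and in neither cPt-sensitive parent. They were found by merging the autosomal H3K27ac peaks of A2780, A2780cis, CAOV4 and CAOV4cis cells wherever peaks shared 1 bp or more. Of 48131 merged regions, 287 met this rule, or 0.596%, and they are called gained-in-both regions below. A gain here means a peak that is listed in the resistant line and not in its parent, since the lists give the position of each peak and not its strength. The members were chosen by the H3K27ac peak positions of these 4 lists, so those values at the 287 regions are a description with no test. H3K9ac in A2780 and A2780cis cells and H3K27ac after knockdown of MBD3 played no part in the choice, and these libraries carry the comparisons.

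H3K27ac is an acetylated lysine of histone H3 found at active promoters and enhancers, and H3K9ac is a related acetylation of active regulatory elements. Acetyl groups are removed by histone deacetylases, among them those of the NuRD complex, which joins deacetylases to a nucleosome remodeler and holds MBD3 as a subunit. Cisplatin crosslinks DNA, and EOC cells under prolonged exposure can become resistant to it.

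A2780 cells come from an endometrioid adenocarcinoma and are cPt-sensitive, and A2780cis cells are their resistant derivative. CAOV4 cells come from a high-grade serous adenocarcinoma, and CAOV4cis is the line made resistant by keeping them under escalating cPt doses. Both resistant lines grew in medium with cPt and their parents without it, so resistance and drug exposure at harvest cannot be told apart. For the knockdown, A2780 cells made Tet-on competent carried either of 2 inducible hairpins against MBD3, shMBD3.26 or shMBD3.232, for 1 week of knockdown and were sorted for GFP. Cells with the control hairpin were not analysed here, so the hairpin libraries were read against untransduced A2780 cells, and effects of transduction, induction and sorting cannot be told apart from those of the knockdown. Each of the 8 conditions had 1 library, made from micrococcal nuclease-digested mononucleosomes with a *D. melanogaster* spike-in, and no difference between conditions has a replicate check.

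The guide sequences listed for both hairpins are shown because they set the knockdown libraries apart. They are printed as the hairpin table of the study lists them. Capitals mark bases 2 to 8, the seed if the listed sequence is the guide read 5′ to 3′. No MBD3 transcript sequence was used here, so the strand of each listed sequence was not checked.
shMBD3.26: aACAAGGTcaagagcgacccgc
shMBD3.232: tTGCTCATcagcatcttgcccg
Both listed sequences are 22 bases long, with a GC content of 59.1% and 54.5%, and their marked bases differ. A region with a peak under both hairpins was therefore listed with 2 different hairpin sequences.

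On the autosomes, H3K27ac peaks numbered 27932 in A2780, 20245 in A2780cis, 22826 in CAOV4 and 24660 in CAOV4cis. With shMBD3.26 the list held 23270 peaks and with shMBD3.232 it held 18936. H3K9ac peaks numbered 22438 in A2780 and 15058 in A2780cis. The read depth behind the peaks is unknown, and all boundaries on these chromosomes lay on a 200 bp grid. Peaks were found on 19 autosomes, with none on 20 to 22. On chromosomes 1 to 12 the last listed peaks ended before the chromosome did, on chromosome 1 at position 197193000, so counts per chromosome leave out the unlisted ends. No hg19 genome or annotation was used here, so regions are named by position and not by gene. Intervals in brackets are 95% intervals, Wilson for a share and Newcombe for a difference of shares, and cover counting error over regions only.

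Gained-in-both regions were a small subset of the gains of each pair. Gains in A2780cis over A2780 numbered 5309 regions (11.0% of all regions) and gains in CAOV4cis over CAOV4 numbered 9935 (20.6%). When the A2780cis and CAOV4cis lists alone were merged, 8945 regions held a peak of both, a different set of regions from the merge of all lists. Of these 8945, 6961 also had peaks in both parents, 1280 in A2780 only and 417 in CAOV4 only, which left the 287. Among those left out, 29 held only 200 bp of sensitive peaks and 273 held up to 1 kb. The 5 just outside, in order of position, were chr1:6289801-6291600, chr1:10831401-10832200, chr1:36648201-36650400 and chr1:153711801-153718600, each with 200 bp of an A2780 peak, and chr1:154434201-154438400 with 200 bp of a CAOV4 peak. Just inside were 11 regions that a sensitive peak touched without sharing a base. The first 5 were chr1:57043801-57045400, chr7:75277801-75279800 and chr10:69825801-69828000 beside a CAOV4 peak, and chr1:154145201-154147800 and chr6:111205801-111206800 beside an A2780 peak. The border of the rule was therefore narrow for these regions, and without the 11 the number was 276.

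Most gained-in-both regions were made of 1 peak from each line, as 282 of the 287 were. The merged width had a median of 2600 bp (2400 to 3000 bp), with quartiles at 1600 and 4000 bp and a range from 400 to 16600 bp. For comparison, the median was 1400 bp at the 5022 regions gained in A2780cis only and 1200 bp at the 9648 gained in CAOV4cis only. It was 2400 bp at the 428 regions lost in both pairs, which hold a peak in both parents and in neither resistant line. A region that needs peaks of 2 lists spans both of them, so these widths are not measured alike. Peak by peak, the A2780cis peak had a median of 1800 bp at gained-in-both regions and 1200 bp at regions gained in A2780cis only. The CAOV4cis peak had a median of 1400 bp at gained-in-both regions, against 800 bp at the 7886 regions where CAOV4cis alone had a peak. The rule asks for an overlap of both peaks, which a wider peak meets more easily, so these medians are not a like comparison either. At the 659 A2780cis-only regions with a CAOV4 peak, the A2780cis peak had a median of 1600 bp.

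The stretch that both resistant peaks shared was short, with a median of 600 bp and a range from 200 to 5200 bp. In 53 regions it was 200 bp, the smallest step of the grid, and in 109 it was up to 400 bp, whereas 107 regions shared 1 kb or more and 32 shared 2 kb or more. In all, the 287 regions spanned 916.4 kb, of which 262.8 kb lay under both peaks. One peak lay wholly inside the other in 186 regions, and both covered the same bases in 3. The A2780cis peak was the wider one in 157 regions and the CAOV4cis peak in 115, with 15 equal. Gains in both lines therefore often meant a wide peak in one line and a narrow one in the other.

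The widest regions showed this difference most clearly. In the 7 regions over 10 kb, the A2780cis peak covered 8800 to 16600 bp and the CAOV4cis peak 200 to 2400 bp. At chr6:140661001-140677600 the whole 16600 bp was 1 A2780cis peak, and CAOV4cis had a peak of 200 bp. The same held at chr11:58370201-58386400, with 16200 bp in A2780cis and 200 bp in CAOV4cis. No region was over 10 kb through its CAOV4cis peak alone, which covered at most 7400 bp at any gained-in-both region. At chr19:11138801-11149000, A2780cis covered 8800 of 10200 bp, so this region passed 10 kb only together with its 1800 bp of CAOV4cis peak.

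**Figure D1:**
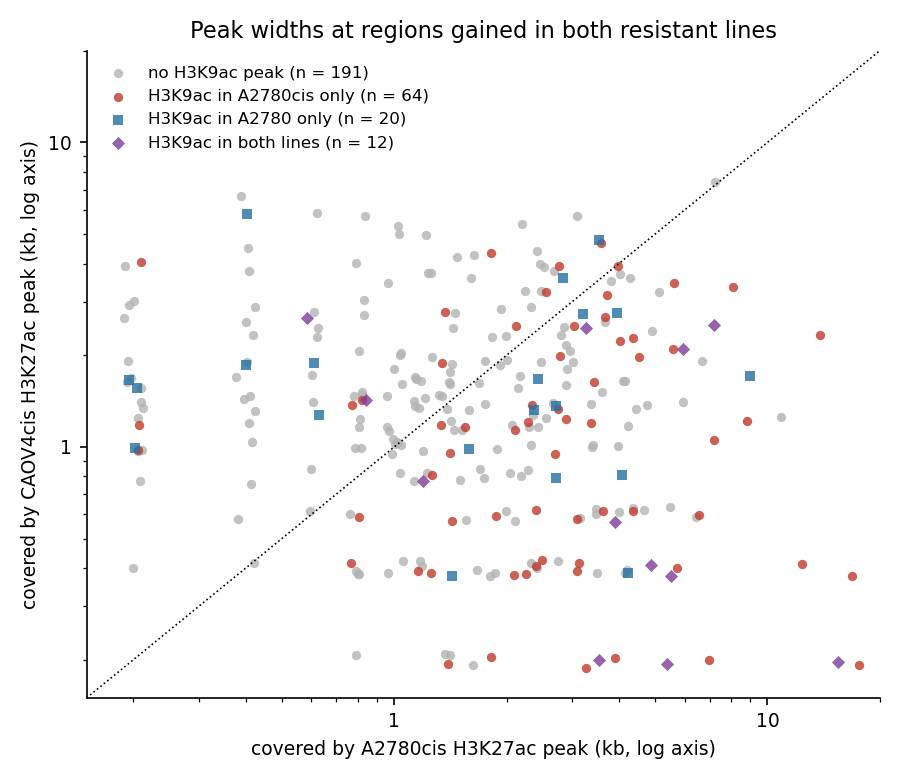
Bases covered by the A2780cis peak (x axis) and the CAOV4cis peak (y axis) at each of the 287 regions gained in both resistant lines, in kb on log axes, with points moved slightly so that equal values can be seen. The dotted line marks equal covered length, which 157 regions pass on the A2780cis side and 115 on the CAOV4cis side, and colors and shapes give the H3K9ac state.

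The 10 regions with the most bases shared by both resistant peaks lay on 7 chromosomes. The largest was chr12:53457601-53466800, where A2780cis peaks covered 7000 bp, CAOV4cis peaks 7400 bp and both together 5200 bp of 9200 bp. It touched an A2780 peak on one side and a CAOV4 peak on the other, so it lay between peaks of different sensitive lines. It held no H3K9ac peak in either line and 200 bp of a shMBD3.232 peak.

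At chr15:101418801-101422600 both resistant lines had a peak over the same 3800 bp. This was the widest of the 3 regions with equal boundaries in both lines. The nearest A2780 peak was 49200 bp away, and the nearest CAOV4 peak was 3800 bp away. H3K9ac covered 2600 bp in A2780cis and none in A2780, and shMBD3.26 gave a peak of 800 bp. Next came chr10:7449801-7454400, with 3600 bp shared and no sensitive peak within 100 kb. Its nearest A2780 peak was 274200 bp away and its nearest CAOV4 peak 171400 bp away, and it held 600 bp of H3K9ac in A2780cis. Also far from sensitive peaks was chr4:15002401-15007800, with 3400 bp shared, an A2780 peak 463400 bp away and 3600 bp of H3K9ac in A2780cis only. Both distant regions were without a hairpin peak.

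Not all of the largest shared regions carried a second mark or a hairpin peak. At chr17:3639201-3643400 the lines shared 3600 bp, at chr8:25331601-25336800 they shared 3200 bp, and at chr12:110018201-110022200 they shared 2600 bp, with no H3K9ac and no hairpin peak at any of them. At chr11:34089201-34093200, 3200 bp were shared and a shMBD3.232 peak covered 1400 bp, again without H3K9ac. The remaining pair had H3K9ac in A2780. Of these, chr10:75638601-75642600 shared 2800 bp and held 200 bp of H3K9ac in A2780, none in A2780cis and 200 bp with shMBD3.26. At chr11:101731801-101735200, 2600 bp were shared, H3K9ac covered 2200 bp in A2780cis against 400 bp in A2780, and shMBD3.26 gave 1800 bp. Of the 10 regions, 4 thus had an H3K9ac peak in A2780cis.

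Position was described by chromosome, since no annotation of the build was used. Chromosome 12 held the most gained-in-both regions, 26 of its 2791 regions or 0.932% (0.637% to 1.36%), against 0.596% over all chromosomes. The shares on chromosomes 15 and 6 were 0.899% and 0.885%. Few lay on chromosome 2, with 6 regions or 0.235% (0.108% to 0.511%), and on chromosome 13, with 2 regions or 0.180%. None lay on chromosome 18, and 0 of 957 regions allows a share of up to 0.313%, taken as 3 counts of the total. Gains in single pairs are given as counts and not as shares, and chromosomes 12, 2, 13 and 18 held 2791, 2555, 1110 and 957 regions. By count, gains in CAOV4cis had the same order over these chromosomes as gained-in-both regions, and gains in A2780cis did not. Chromosome 12 held 243 gains in A2780cis and 616 in CAOV4cis, chromosome 2 held 384 and 407, chromosome 13 held 57 and 206, and chromosome 18 held 133 and 141.

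Few gained-in-both regions were close to each other. Neighbors within 50 kb formed 16 pairs with 31 regions, and 4 pairs were within 5 kb. The closest was chr8:120874801-120876400 with chr8:120877401-120882600, 1000 bp apart, which is the smallest gap between peaks of a list. At chr17:28167801-28172600 and chr17:28174001-28186200 the gap was 1400 bp, at chr16:2700601-2705800 and chr16:2707601-2711800 it was 1800 bp, and at chr11:34083001-34085800 and chr11:34089201-34093200 it was 3400 bp. These regions were therefore mostly single sites and not long runs.

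Many gained-in-both regions lay near a peak that a sensitive line already had. The median gap was 8800 bp to the nearest A2780 peak, 10600 bp to the nearest CAOV4 peak and 5600 bp to the nearer of both. A sensitive peak was within 1 kb of 44 regions and within 5 kb of 140, and in 62 regions both parents had a peak within 5 kb. If regions with a sensitive peak within 5 kb were left out, 147 remained. At the other end, 28 regions had no sensitive peak within 100 kb. The most isolated was chr3:116778201-116785000, chosen after its values were seen, with a gap of 1398800 bp to CAOV4 and 1910000 bp to A2780. Its A2780cis peak covered 6800 bp and its CAOV4cis peak 600 bp.

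The surroundings held more listed H3K27ac in the resistant lines. In the 50 kb on each side of a region, A2780cis peaks covered a median of 9.8 kb and A2780 peaks 7.4 kb. In the second pair, CAOV4cis peaks covered 8.6 kb and CAOV4 peaks 7.2 kb. The A2780cis flanks exceeded those of A2780 at 157 regions and fell short at 85, and those of CAOV4cis exceeded CAOV4 at 156 and fell short at 83. At 100 regions both pairs had more in the resistant flanks, and at 31 both had less. The flanks come from the lists that chose the regions, and these counts are descriptions. H3K9ac, which did not choose them, covered a median of 5.6 kb of the flanks in A2780cis and 4.4 kb in A2780, with more in A2780cis at 141 regions and less at 86.

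H3K9ac was measured in A2780 and A2780cis cells and asks whether a second acetylation was listed at the gained-in-both regions. An H3K9ac peak was present in A2780cis at 76 regions, or 26.5% (21.7% to 31.9%), and in A2780 at 32, or 11.1% (8.01% to 15.3%). Over all 48131 regions, the share was 22.9% in A2780cis and 26.5% in A2780. Over the 23385 regions without an A2780 H3K27ac peak, to which the gained-in-both regions belong, it was 5.12% and 4.22%. Only 5309 of these 23385 regions held an A2780cis H3K27ac peak, which every gained-in-both region has by the rule. The others came from the CAOV4 and CAOV4cis lists only, so this background is not a like set. The order of the lines at the gained-in-both regions was thus opposite to that over all regions, although the A2780cis list is the shorter one, and regions gained in A2780cis only shared this order.

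By state, 64 regions had H3K9ac in A2780cis and not in A2780, or 22.3% (17.9% to 27.5%), against 5.97% over all regions and 4.46% of those without an A2780 H3K27ac peak. The opposite state was found at 20 regions, or 6.97% (4.56% to 10.5%), against 9.52% and 3.56%. Both lines had H3K9ac at 12 regions and neither at 191, or 66.6% (60.9% to 71.8%). Most gained-in-both regions were therefore listed without H3K9ac in the A2780 pair, and H3K9ac was not measured in the CAOV4 pair. This was also so over all regions, where 22.9% had H3K9ac in A2780cis and 9.52% in A2780 only. Against regions gained in A2780cis only, the share with neither differed by -10.6 points (-16.4 to -5.31), and against regions lost in both by 1.83 points (-5.31 to 8.81). In covered length, H3K9ac summed to 159.6 kb in A2780cis and 30.6 kb in A2780 over the 287 regions. Where a peak was present, it covered a median of 1800 bp in A2780cis and 800 bp in A2780, and it covered at least 50% of the region at 48 and 7 regions, respectively. In the 12 regions with H3K9ac in both lines, A2780cis had more covered bases at 11, and the exception was chr11:723601-730600 which held 3800 bp in A2780cis against 5000 bp in A2780.

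Where H3K9ac was gained too, it could span a large part of the region. The most was at chr3:94228801-94244800, a 16000 bp A2780cis H3K27ac peak with 12000 bp of H3K9ac in A2780cis, none in A2780 and 400 bp of H3K27ac in CAOV4cis. At chr1:65503401-65508400 the H3K9ac peak of A2780cis covered all 5000 bp, although the H3K27ac peaks of both resistant lines shared only 200 bp. At chr9:118700201-118709200, 5000 of 9000 bp carried H3K9ac in A2780cis and the CAOV4cis H3K27ac peak covered 1200 bp. All 3 were without H3K9ac in A2780 and without a hairpin peak.

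The same was seen at 3 more regions with the most gained H3K9ac. At chr6:47598001-47602800, H3K9ac covered 4400 of 4800 bp, and the resistant lines shared 1800 bp of H3K27ac. At chr14:102173001-102178000 it covered 4000 of 5000 bp, with 2000 bp of shared H3K27ac. At chr16:1026001-1035200 it covered 4000 of 9200 bp, with 2400 bp shared. None of them had a hairpin peak, and the first pair lay over 20 kb from any sensitive peak, whereas the last was 4600 bp from an A2780 peak.

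H3K9ac in A2780 only was found at 20 regions, some of them with long stretches (examples chosen after their values were seen). At chr17:55908401-55913800 it covered 2200 bp in A2780 and none in A2780cis. At chr12:48226001-48228400 it covered 1800 of 2400 bp, next to an adjoining A2780 H3K27ac peak. At chr10:75345601-75347400 it covered 1600 of 1800 bp, with an A2780 H3K27ac peak 3200 bp away. The sensitive line thus had H3K9ac at some sites that count as gained for H3K27ac.

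Against regions gained in A2780cis only, H3K9ac in A2780cis was more frequent at gained-in-both regions, with 26.5% against 17.9% (16.9% to 19.0%). The difference was 8.54 percentage points (3.65 to 14.0). H3K9ac in A2780 was more frequent as well, with 11.1% against 6.85% and a difference of 4.30 points (1.08 to 8.52), so the excess was not limited to the resistant line. Wide regions more often held H3K9ac, and gained-in-both regions were wider. Among regions of like width, the difference for A2780cis was 7.25 points (lower bound -1.71) up to 1 kb, 2.66 (-4.14 to 11.9) over 1 to 2 kb, 4.73 (-3.15 to 14.1) over 2 to 4 kb and -4.32 (-16.0 to 8.06) over 4 kb. Every one of these intervals included 0, with 22 to 107 gained-in-both regions in a class, so no difference in the H3K9ac of A2780cis was shown at like width. For H3K9ac in A2780, the difference was above 0 in all 4 width classes of merged regions and its interval excluded 0 in 1 of them.

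Looked up within the A2780cis peak itself, a setting chosen after seeing the data, the shares were 26.4% and 17.8%. For peaks of like width they were 9.89% and 6.64% up to 1 kb, 20.8% and 15.3% over 1 to 2 kb, 36.6% and 23.4% over 2 to 4 kb and 51.2% and 58.1% over 4 kb. Here the difference at 2 to 4 kb, 13.2 points (3.19 to 24.4), excluded 0, and that over 4 kb, -6.90 points (-21.8 to 7.88), had the opposite sign. H3K9ac rose with the width of the A2780cis peak in both sets, from under 10% to over 50%.

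The A2780cis-only regions were mixed in whether CAOV4 cells had a peak there. Of the 5022, 659 held a CAOV4 peak, a set compared after seeing the data, and they carried H3K9ac at 24.9% (21.7% to 28.3%) in A2780cis and at 10.6% (8.49% to 13.2%) in A2780. The gained-in-both regions differed from them by 1.59 points (-4.29 to 7.84) and 0.528 points (-3.54 to 5.21), so a higher H3K9ac share was not particular to gains in both lines. These 659 regions were wider, with a median of 4000 bp, and their merged width includes the CAOV4 peak. In the class over 4 kb H3K9ac in A2780cis was 12.4 points (0.0256 to 25.3) more frequent at gained-in-both regions, and the intervals of the other 3 classes included 0. The remaining 4363 A2780cis-only regions had a peak in A2780cis alone. Against them the difference over 4 kb had the opposite sign, -14.7 points (-26.6 to -1.97), and the intervals of the narrower classes included 0. Over all widths it was 9.59 points (4.68 to 15.1).

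The regions gained in one direction or line give the range of H3K9ac shares. Where CAOV4cis alone had an H3K27ac peak, H3K9ac was listed at 1.34% of 7886 regions in A2780cis and at 2.71% in A2780. Regions lost in both pairs showed the mirror image of the gained-in-both regions, with 8.18% (5.94% to 11.2%) in A2780cis and 29.0% (24.9% to 33.4%) in A2780. At the 6856 regions with H3K27ac in all 4 lists the shares were 85.5% and 84.9%. Gained-in-both regions were therefore below shared regions in H3K9ac in both lines, and the shared regions were wider, with a median of 7600 bp.

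**Figure D2:**
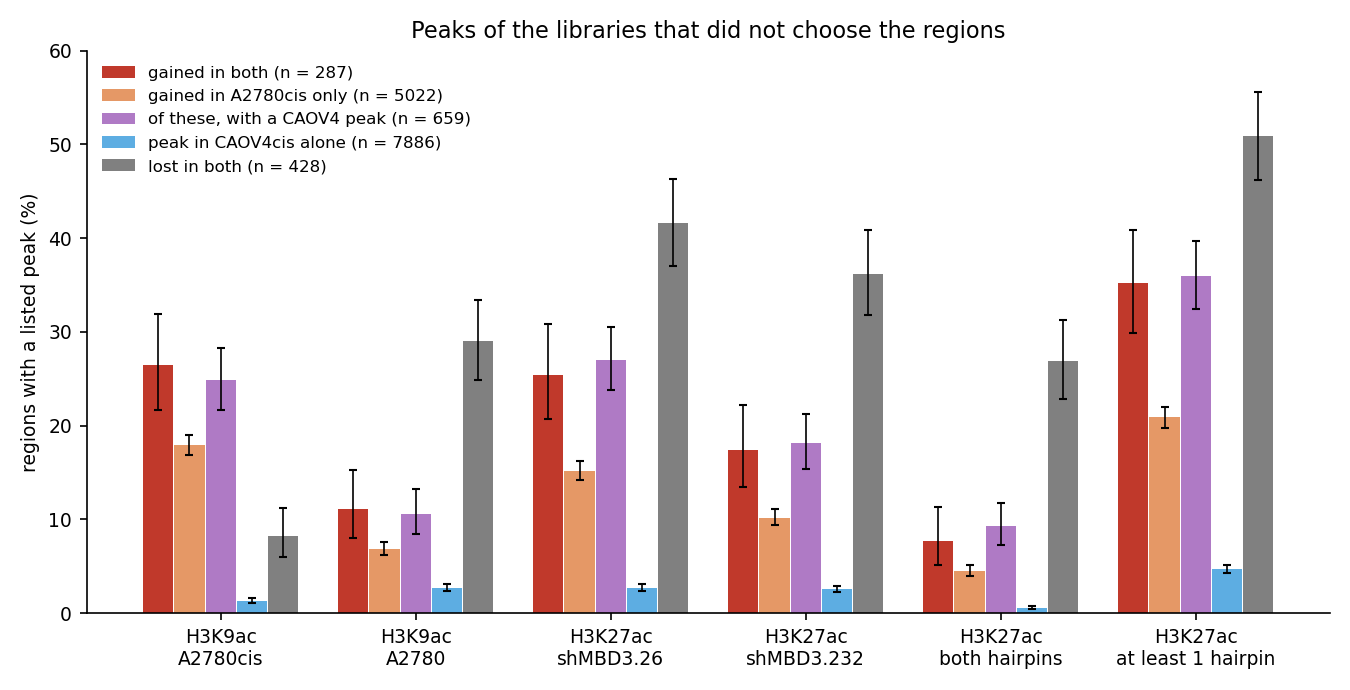
Share of regions (%, y axis) with a listed peak in the libraries that did not choose them, for regions gained in both resistant lines, gained in A2780cis only, the 659 of these with a CAOV4 peak, with a peak in CAOV4cis alone and lost in both pairs. Bars show 1 library per condition with 95% Wilson intervals. H3K9ac in A2780cis was listed at 26.5% of the gained-in-both and 8.18% of the lost-in-both regions, and H3K9ac in A2780 at 11.1% and 29.0%, and the gained-in-both and the 659 regions have overlapping intervals in all 6 groups of bars.

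H3K9ac also varied with the width balance and the position of the gained-in-both regions. Where the A2780cis H3K27ac peak was the wider one, 38.9% (31.6% to 46.7%) had H3K9ac in A2780cis, and where the CAOV4cis peak was wider, 12.2% (7.39% to 19.4%) had it, with median region widths of 3000 and 2200 bp. H3K9ac in A2780 was at 13.4% (8.92% to 19.6%) and 9.57% (5.43% to 16.3%), with overlapping intervals. Within 5 kb of an A2780 H3K27ac peak, H3K9ac was about as frequent in A2780 as in A2780cis, with 19.2% (12.8% to 27.8%) and 18.3% (12.0% to 26.8%) of 104 regions. Over 20 kb away, it was listed at 5.88% (2.72% to 12.2%) in A2780 and at 32.4% (24.1% to 41.9%) in A2780cis, over 102 regions. Between 5 and 20 kb the shares were 7.41% and 29.6% of 81 regions. The intervals of both lines thus overlapped close to A2780 H3K27ac peaks and were apart over 20 kb away, and the median width was 2500 to 2800 bp in all 3 distance classes. With a sensitive peak within 5 kb excluded, 6.12% of the 147 regions left had H3K9ac in A2780, and with H3K9ac lists of equal length, a setting chosen after seeing the data, 5.23% of the 287 did. Both values are lower than 11.1% by over 1.5 times.

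**Figure D3:**
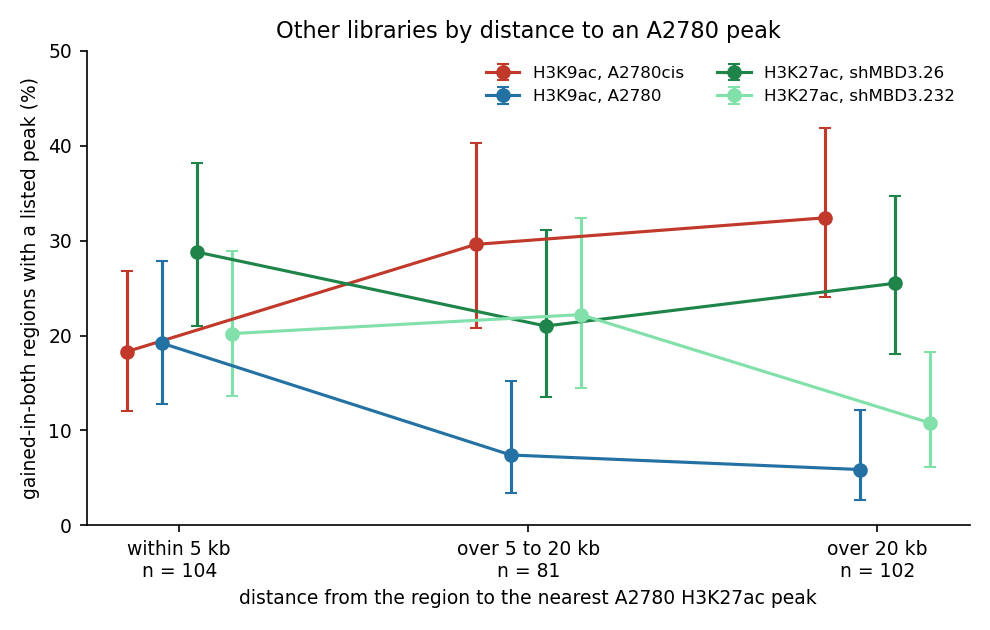
Share of the regions gained in both resistant lines (%, y axis) with a listed peak in each of the 4 libraries that did not choose them, in 3 classes of distance to the nearest A2780 H3K27ac peak (x axis, kb). Points show shares with 95% Wilson intervals over 104, 81 and 102 regions, and H3K9ac in A2780 falls from 19.2% to 5.88% while H3K9ac in A2780cis goes from 18.3% to 32.4%.

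The hairpin libraries ask whether A2780 cells with MBD3 knockdown had H3K27ac at sites that untransduced A2780 cells lacked and both resistant lines had. A peak was listed with shMBD3.26 at 73 regions, or 25.4% (20.7% to 30.8%), and with shMBD3.232 at 50, or 17.4% (13.5% to 22.2%). At least 1 hairpin gave a peak at 101 regions, or 35.2% (29.9% to 40.9%), and both gave one at 22, or 7.67% (5.12% to 11.3%). The other 186 regions had no peak with either hairpin. The background over all regions was 34.3% for shMBD3.26, 31.7% for shMBD3.232, 38.7% for at least 1 and 27.3% for both. Those regions include the sites where A2780 had a peak, and over the 23385 regions without one the shares were 5.89%, 4.34%, 8.65% and 1.59%. Most of these 23385 regions held no A2780cis H3K27ac peak either, whereas every gained-in-both region has one by the rule.

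Most of these peaks were found with 1 hairpin and not the other. Of the 101 regions, 51 had a peak with shMBD3.26 alone and 28 with shMBD3.232 alone. The peaks were also short, with a median of 800 bp for shMBD3.26 and 900 bp for shMBD3.232, or 28.6% and 34.2% of the region. In sum they covered 70.0 kb and 52.4 kb of the 916.4 kb. With shMBD3.26, 23 regions were covered to at least 50%, and with shMBD3.232, 21 were. Both hairpins thus had a peak at a minority of these 101 regions, and most of the 287 had no peak in the knockdown lists, like untransduced A2780. A minority was also the background without an A2780 H3K27ac peak, where both had one at 371 of the 2022 regions with at least 1. Over all regions, which include A2780 peaks, both had one at 13147 of 18636.

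Among the 22 regions with both hairpins, the one with the most shared resistant bases was chr17:55908401-55913800. There the resistant peaks shared 2600 bp, shMBD3.26 covered 1400 bp and shMBD3.232 1200 bp, and H3K9ac was listed in A2780 only. At chr1:33167001-33170000 the resistant lines shared 2400 bp, and the hairpin peaks covered 1800 and 1600 bp without H3K9ac in either line. At chr7:26190601-26193600, 2400 bp were shared, the hairpins covered 1200 and 1000 bp, and H3K9ac covered 1800 bp in A2780cis only. These 3 regions were 7200 to 29800 bp from an A2780 peak and carried 3 different H3K9ac states.

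The next 3 were smaller. At chr9:22008401-22011000 the resistant lines shared 1400 bp, and shMBD3.26 covered 1200 bp and shMBD3.232 1400 bp. At chr9:77501601-77503200 they shared 1200 bp, each hairpin covered 800 bp and H3K9ac covered 1000 bp in A2780cis. At chr16:2700601-2705800, 1200 bp were shared, and the hairpins covered 400 and 1000 bp of 5200 bp. The single region that both hairpins covered from end to end was chr2:20526201-20528400 (chosen after its values were seen), 2200 bp wide and 600 bp from an A2780 peak, without H3K9ac.

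Long peaks with 1 hairpin were also found, with examples chosen after their values were seen. With shMBD3.26 alone, chr4:77903001-77906200 was covered over its whole 3200 bp, and its CAOV4cis peak was 200 bp. At chr12:110914601-110918000, shMBD3.26 covered 3000 of 3400 bp. With shMBD3.232 alone, the peak covered 2800 of 6800 bp at chr17:2587001-2593800 and 1600 of 2600 bp at chr1:154145201-154147800. Of all 24 regions with over 1 kb of shMBD3.26 peak, 10 had a shMBD3.232 peak too, and of the 19 with over 1 kb of shMBD3.232 peak, 10 had a shMBD3.26 peak.

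**Figure D4:**
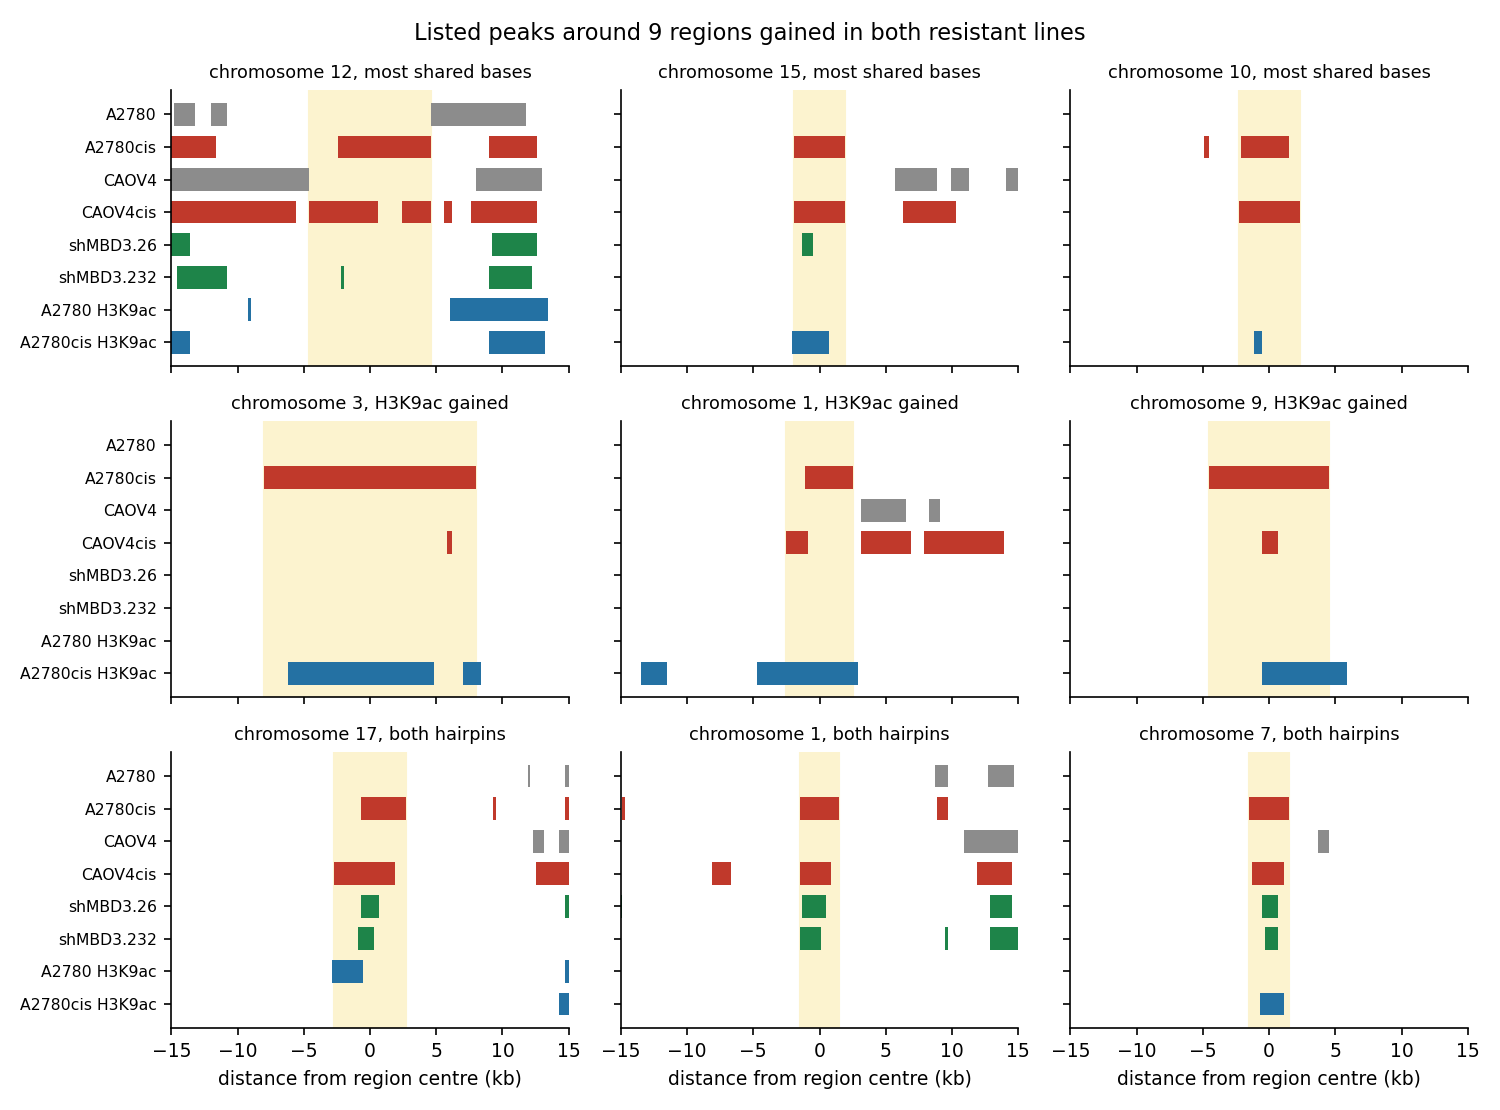
Listed peaks (bars) in all 8 libraries within 15 kb of the centre of 9 regions gained in both resistant lines (x axis, distance from the centre in kb), 3 each with the most shared bases, the most gained H3K9ac and the most shared bases among those with both hairpins. Shading marks the region, gray bars are sensitive lines, red bars resistant lines, green bars MBD3 hairpins and blue bars H3K9ac. The first region lies between sensitive peaks that touch it, and the 3 with gained H3K9ac have no green bar.

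Against regions gained in A2780cis only, hairpin peaks were more frequent at gained-in-both regions. At least 1 hairpin gave a peak at 35.2% against 20.9% (19.8% to 22.0%), a difference of 14.3 points (8.88 to 20.1). The difference was 10.3 points (5.46 to 15.7) with shMBD3.26, 7.21 (3.16 to 12.1) with shMBD3.232 and 3.17 (0.544 to 6.87) for both. Unlike H3K9ac in A2780cis, the share with at least 1 hairpin was above that of the A2780cis-only regions in all 4 width classes. It was 18.2% against 14.2% up to 1 kb, 30.8% against 23.6% over 1 to 2 kb, 41.1% against 29.1% over 2 to 4 kb and 37.3% against 24.3% over 4 kb. The differences for the latter 2 classes, 12.0 points (2.63 to 21.9) and 13.0 points (1.99 to 25.3), excluded 0, and those of the narrower classes, 4.01 (-6.98 to 24.4) and 7.13 (-1.77 to 17.5), did not.

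Within the A2780cis peak, so that the CAOV4cis peak added no bases, at least 1 hairpin was listed at 32.3% against 20.4%, a difference of 11.8 points (6.58 to 17.6). By peak width the differences were 10.1 points (2.20 to 20.1), 7.14 (-2.78 to 18.8), 11.7 (1.28 to 22.9) and 13.4 (0.845 to 28.6), from the narrowest to the widest class. All but that over 1 to 2 kb excluded 0. For both hairpins, no width class of merged regions had an interval that excluded 0, and within the A2780cis peak only that over 1 to 2 kb did, with 5.64 points (lower bound 0.096). The comparison rests on 1 library per hairpin. At the 659 A2780cis-only regions with a CAOV4 peak, at least 1 hairpin was listed at 36.0% (32.4% to 39.7%), shMBD3.232 at 18.2% and both at 9.26%. The gained-in-both regions differed from them by -0.772 points (-7.25 to 5.94) for at least 1 hairpin, by -1.58 points (-7.44 to 4.68) for shMBD3.26 and by -1.59 points (-5.13 to 2.58) for both, so the higher hairpin shares were not particular to gains in both lines.

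**Figure D5:**
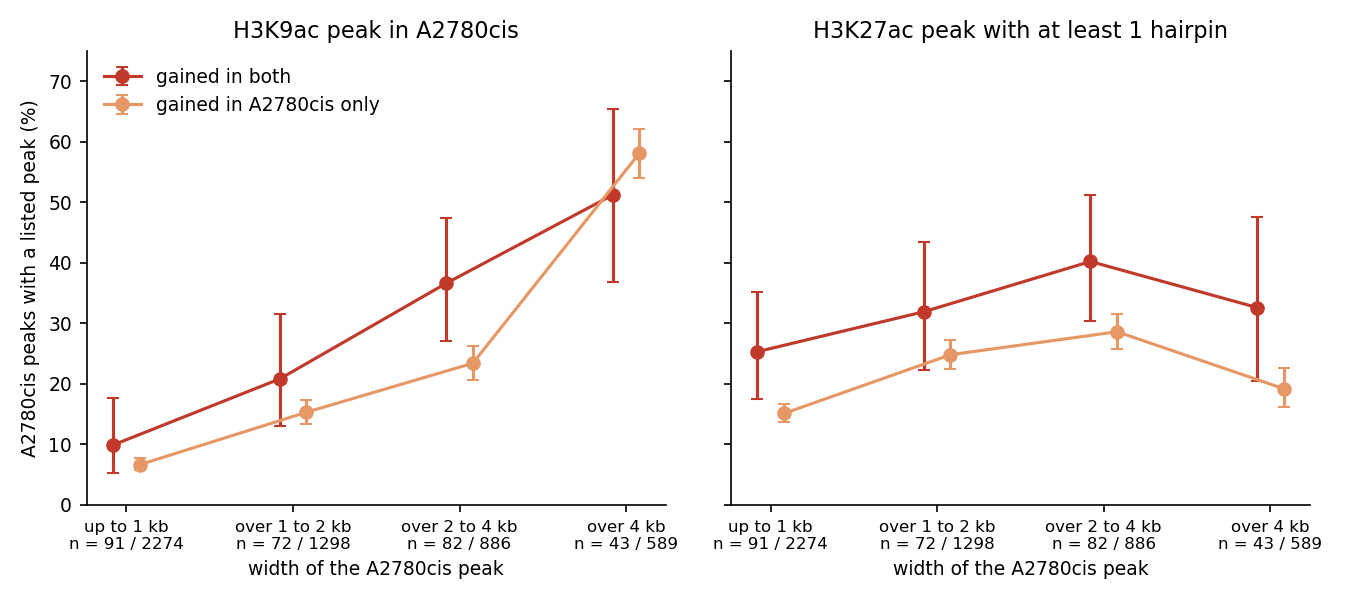
Share of A2780cis H3K27ac peaks (%, y axis) with an H3K9ac peak in A2780cis (left) or with an H3K27ac peak of at least 1 MBD3 hairpin (right), by width of the A2780cis peak (x axis, kb), at regions gained in both lines and gained in A2780cis only. Points show shares with 95% Wilson intervals and n gives the number of peaks in each set. H3K9ac goes up with width in both sets, whereas the hairpin share of the gained-in-both regions is above that of the A2780cis-only regions in all 4 classes, 25.3% against 15.1% in the first.

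Where CAOV4cis alone had a peak, at least 1 hairpin was listed at 4.69% (4.25% to 5.18%) of regions, and at regions lost in both pairs at 50.9%. The latter hold an A2780 peak by their definition, so there the hairpin libraries mostly show peaks that untransduced A2780 cells had. By distance, at least 1 hairpin was listed at 40.4% of gained-in-both regions within 5 kb of an A2780 peak, 35.8% between 5 and 20 kb and 29.4% over 20 kb away, with overlapping intervals. For shMBD3.232 the shares were 20.2%, 22.2% and 10.8%, and for shMBD3.26 they were 28.8%, 21.0% and 25.5%. The length of the lists moved the hairpin values. When each of the 4 H3K27ac lists was cut to its 20245 widest peaks, so that narrow A2780 and CAOV4 peaks no longer counted against a region, both hairpins gave a peak at 20.4% and at least 1 at 47.5% of 362 regions.

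H3K9ac and hairpin peaks were found partly at different regions. At least 1 of the 4 libraries outside the rule had a peak at 156 of the 287 regions, and 131 had none, with a median width of 2000 bp. In 38 regions H3K9ac was gained in A2780cis without a hairpin peak, and in 11 both hairpins gave a peak without H3K9ac in either line. The like counts over all regions are not given here, so these counts describe the 287 regions and show no excess or lack. H3K9ac in A2780cis was listed at 33.7% (25.2% to 43.3%) of the regions with at least 1 hairpin and at 22.6% (17.2% to 29.1%) of those with neither, and these regions had median widths of 3000 and 2400 bp. All 4 libraries had a peak at 2 regions. These were chr1:55487401-55489000, with 1000 bp of H3K9ac in A2780cis, 600 bp in A2780 and 1000 bp with each hairpin, and chr16:75271201-75274800. The latter was a 3600 bp A2780cis peak with 200 bp in CAOV4cis, 3000 bp of H3K9ac in A2780cis, 1200 bp in A2780, 1600 bp with shMBD3.26 and 3600 bp with shMBD3.232, and it was 600 bp from an A2780 H3K27ac peak.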

How the data were processed

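H3K27ac ChIP-seq of A2780, A2780cis, CAOV4, CAOV4cis and A2780 cells with shMBD3.26 or shMBD3.232, and H3K9ac ChIP-seq of A2780 and A2780cis cells, were analyzed, with 1 library per condition. The authors used Bowtie2 for alignment, then quantile normalization, and MACS2 for peaks of each sample, with versions not given in the sources used here. The submitters' processing notes name GRCh37 and hg19. The deposited lists give the start and end of each peak, and the deposited score was 0 throughout and was not used. No named step gives the 200 bp grid, so widths are those of the lists, and a region without a listed peak can carry signal below the threshold. Without read counts, the precision of a peak is unknown. The 8 input samples and the control hairpin were not analysed here.

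Autosomal peaks sharing 1 bp were merged, and other libraries counted where they shared 1 bp with a region. Python 3.11.15 ran the calculations, with SciPy 1.17.1, pandas 2.3.3 and numpy 2.4.6. Plots were drawn with matplotlib 3.10.9. Only the counts of regions and of shared bases were tested on simulated peaks. The members and lists were chosen with earlier results of these data known. Named are the 10 regions with the most bases shared by the resistant peaks, the 6 with the most A2780cis H3K9ac among those without it in A2780, the 6 with the most shared bases among those with both hairpins, and 5 just inside and outside. Marker and pathway gene lists and gene positions need an annotation of the build and were not used here. Alternatives were another overlap, distance, width limit, list length, set of chromosomes and place of lookup.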

Additional observations from a re-analysis of the deposited data

How the results depend on the processing

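Values were recomputed 54 times, and 42 stayed within 1.5 times the count of 287 or within the interval of the reported share or median. Without a sensitive peak within 5 kb, 147 regions were left, of which 6.12% had H3K9ac in A2780. With resistant peaks over 2 kb in both lines, 38 regions were left, fewer by construction, with a median width of 4300 bp, H3K9ac at 39.5% in A2780cis and 15.8% in A2780, and at least 1 hairpin at 42.1%. With the same number of widest H3K27ac peaks per list, H3K9ac in A2780 was at 16.6%, both hairpins at 20.4% and at least 1 at 47.5%, with 362 regions. Settings added after seeing the data were equal H3K9ac lists, with H3K9ac in A2780 at 5.23%, equal hairpin lists, with at least 1 hairpin at 27.9%, lookup within the A2780cis peak and leaving out adjoining regions. An overlap of 50% gave 308 regions, a gap of 1 kb 243 and all standard chromosomes 295. Other causes of these moves were not tested. No paired analysis was possible because each condition has 1 library. Without read depth, a missing peak does not show a missing mark.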
